A study of Mus musculus with 14 samples.

Results

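Homeodomain transcription factors of neuron identity, a set of 43 genes chosen by name, were followed in single cells of the lateral hypothalamic area. They were found by symbol among the 21568 gene symbols in the count tables of 14 mice, and 25 of the 43 had a row in every table. The mice were male wildtype C57BL/6J animals with free access to a high fat diet (7 mice) or to a control chow matched for taste (7 mice), on a reversed light cycle, with no age given in the labels. Cells came from tissue punches, so neighbouring regions can be included, and were sequenced by Drop-seq, which captures single cells with barcoded beads and counts transcripts by unique molecular identifiers (UMIs). The title of the series names a feeding brake in this region and its state in obesity.

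Homeodomain proteins bind DNA through a helical domain, which in many of them, but not all, recognises short sequences with a TAAT core. In the developing forebrain they divide progenitors into territories, and many stay on in the adult neuron. There, combinations of them mark transmitter and peptide identity: Dlx factors accompany the GABAergic programme, and Otp accompanies glutamatergic neuroendocrine lineages. A few members, such as Nkx2-2 and Nkx6-2, are also known from the oligodendrocyte lineage.

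Barcodes entered with 500 or more UMIs, 300 or more genes and no more than 20% mitochondrial UMIs. These were 15378 of 28410, and 15156 remained after removal of 222 doublets. Totals ran from 147470 to 5611524 UMIs per mouse. There were 6186 neurons, 12 to 827 per mouse, with a median of 3441 UMIs, and 6166 oligodendrocytes with a median of 1095. Neurons with at least 1 UMI of Slc17a6, the vesicular glutamate transporter, and none of Slc32a1, the vesicular GABA transporter, numbered 2000 (32.3%), and the reverse numbered 2712 (43.8%). Both transcripts were seen in 169 neurons (2.73%) and neither in 1305 (21.1%), whose median depth was only 1247 UMIs. Barcode sequences in more than 1 table numbered 41, and 3 were kept as cells in more than 1 mouse.

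The members were read in few neurons each, as is usual for transcription factors at this depth. Zfhx4 had a UMI in 24.8% of neurons, Dlx1 in 24.5%, Meis2 in 20.7%, Isl1 in 19.4% and Zfhx3 in 19.2%. Nkx6-2, Vax1, Irx3 and Barhl1 had 20, 16, 8 and 7 UMIs over all neurons, and Irx5 had 0 UMIs in 6186 neurons, which allows a share of up to 0.0485% of neurons with a UMI. When 4368 neurons were thinned to 2000 UMIs each, the median neuron held 2 members, 18.0% held none and 23.1% held 3 or more. Slc32a1 neurons held none in 14.2% of cases and Slc17a6 neurons in 25.0%. Holding members was not particular to neurons. At 1000 UMIs per cell the mean was 0.935 members in neurons and 0.778 in oligodendrocytes. It was 1.05 in 328 oligodendrocyte precursor cells and 1.10 in 131 astrocytes.

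Promoter sequences are given for pairs of members called higher together over all neurons. Dlx1 was higher in Isl1 neurons by 1.08 ± 0.07 (edgeR adjusted p = 3.41e-23), but not called inside Slc32a1 neurons (0.10, adjusted p = 0.716, edgeR). Otp was higher in Uncx neurons by 1.79 ± 0.16 (edgeR adjusted p = 2.62e-18), but not called inside Slc17a6 neurons (0.33, adjusted p = 0.665, edgeR). Each is the 250 bases before a RefSeq transcription start (build GRCm38.p6), read 5′ to 3′ on the strand of the gene. Capitals mark the core TAAT or its reverse complement ATTA, which can overlap and which not all members recognise.
Dlx1 (chr2:71529195-71529444, plus strand): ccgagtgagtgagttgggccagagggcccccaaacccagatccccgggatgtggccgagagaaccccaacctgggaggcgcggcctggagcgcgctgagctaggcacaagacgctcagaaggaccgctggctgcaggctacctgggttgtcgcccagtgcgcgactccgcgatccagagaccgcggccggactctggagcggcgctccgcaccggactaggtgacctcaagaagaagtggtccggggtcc
Isl1 (chr13:116309689-116309938, minus strand): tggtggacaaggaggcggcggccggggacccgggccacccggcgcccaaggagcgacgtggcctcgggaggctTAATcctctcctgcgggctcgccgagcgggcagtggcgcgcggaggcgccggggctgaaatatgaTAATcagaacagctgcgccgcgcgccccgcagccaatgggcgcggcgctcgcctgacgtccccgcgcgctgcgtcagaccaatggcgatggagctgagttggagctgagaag
Otp (chr13:94875386-94875635, plus strand): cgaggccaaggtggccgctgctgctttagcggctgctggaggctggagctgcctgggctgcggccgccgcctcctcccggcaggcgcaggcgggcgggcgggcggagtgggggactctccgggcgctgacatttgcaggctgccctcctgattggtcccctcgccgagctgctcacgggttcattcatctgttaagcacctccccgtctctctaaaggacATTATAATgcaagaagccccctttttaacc
Uncx (chr5:139543648-139543897, plus strand): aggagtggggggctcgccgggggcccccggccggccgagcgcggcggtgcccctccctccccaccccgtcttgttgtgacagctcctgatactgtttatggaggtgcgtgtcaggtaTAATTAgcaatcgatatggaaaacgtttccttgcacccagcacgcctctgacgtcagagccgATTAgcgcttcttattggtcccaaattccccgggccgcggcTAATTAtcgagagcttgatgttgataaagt
The Dlx1 window held 0 cores, Isl1 and Otp 2 each, and Uncx 5. RefSeq windows matched 34 members with 46 windows, of which 21 (45.7%) held a core, against 54.9% of all 32851 windows of that length. A match describes the letters only.

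Slc17a6 and Slc32a1 neurons carried different members. The question was which members differ between the glutamatergic and the GABAergic neurons of the same mouse. Sums per mouse over 1999 Slc17a6 neurons and 2707 Slc32a1 neurons of 13 mice were compared, with the mouse as a block. Of the 18 members that passed the filter on low counts, 4 were higher in Slc17a6 neurons and 8 in Slc32a1 neurons, where 5.41% and 5.04% of all 8410 genes tested were (10.5% in either direction). A member that passed through its high side alone had to differ, so this count is no support for the set. The median log2 difference, Slc17a6 minus Slc32a1, was -0.46 over the 18 members and 0.00 over all genes.

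The Dlx genes, distal-less factors of the GABAergic forebrain, were on the Slc32a1 side. Dlx1 stood at 0, 1.01 and 9.45 CPM (lowest, median and highest mouse, in UMIs per 1000000 UMIs of all genes) in Slc17a6 neurons and at 149, 195 and 271 CPM in Slc32a1 neurons. The groups did not overlap, Slc32a1 neurons were higher in 13 of 13 mice, and the log2 difference was -6.89 ± 0.15 (edgeR adjusted p = 3.21e-47). The pooled Dlx1 level in oligodendrocytes, 3.16 CPM, was above the median of Slc17a6 neurons, so the Slc17a6 value was not above background. Dlx6 (-6.52 ± 0.27, edgeR adjusted p = 3.23e-31) and Dlx5 (-5.47 ± 0.29, edgeR adjusted p = 1.24e-25) likewise did not overlap between the kinds in any mouse. Dlx2 fell under the filter, with 1 UMI in Slc17a6 and 381 in Slc32a1 neurons.

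The LIM factors fell on both sides. Isl1, a LIM-homeodomain factor of several neuron lineages, was at 0, 8.69 and 21.3 CPM in Slc17a6 and 31.3, 147 and 179 CPM in Slc32a1 neurons, with no overlap, and differed by -3.74 ± 0.11 (edgeR adjusted p = 2.69e-40). Lhx5 was at 19.7, 72.6 and 101 CPM in Slc17a6 and 0, 7.84 and 19.9 CPM in Slc32a1 neurons. It was higher in Slc17a6 neurons in 13 of 13 mice by 3.01 ± 0.14 (edgeR adjusted p = 1.76e-28), although the 2 ranges touched. Its paralog Lhx1 did not pass with the filter (0.41 ± 0.18, edgeR adjusted p = 0.219) and was higher in Slc17a6 neurons without it, by 0.39 (edgeR adjusted p = 0.0120).

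Among the LIM factors under the filter, Lhx9 had 380 UMIs in Slc17a6 and 4 in Slc32a1 neurons, and Lhx2 82 and 4. Lhx6 had 2 and 248, and Lhx8 2 and 78. Lhx9 and Lhx2 were higher in Slc17a6 neurons in 13 of 13 mice each without overlap. Lhx6 was higher in Slc32a1 neurons in 10 mice, with 0 in the lowest mice of both kinds.

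Otp, the orthopedia factor, was at 0, 88.5 and 182 CPM in Slc17a6 and 0, 1.46 and 16.3 CPM in Slc32a1 neurons. It was higher in Slc17a6 neurons in 12 mice and equal at 0 in the other, by 4.38 ± 0.31 (edgeR adjusted p = 8.08e-07). Uncx, another paired-type homeobox gene, fell under the filter with 298 UMIs against 7 and did not overlap between the kinds. Emx2 (168 against 12 UMIs) and Barhl2 (89 against 2) lay on the same side, Emx2 without overlap. Onecut2, of the CUT class, was higher in Slc17a6 neurons by 1.43 ± 0.14 (edgeR adjusted p = 1.23e-12) and Zfhx4, a zinc finger homeodomain factor, by 0.53 ± 0.07 (edgeR adjusted p = 2.89e-08), and both overlapped between the kinds.

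On the Slc32a1 side, Six3, a sine oculis-type factor, differed by -1.74 ± 0.17 (edgeR adjusted p = 1.33e-10) and Hmx3, of the HMX family, by -1.34 ± 0.20 (edgeR adjusted p = 3.60e-06). Pbx3, a TALE cofactor of other homeodomain proteins, differed by -0.80 ± 0.14 (edgeR adjusted p = 4.38e-05) and the POU factor Pou3f3 by -0.94 ± 0.19 (edgeR adjusted p = 1.83e-04), which edgeR did not call in pool 1 alone (adjusted p = 0.0990). All 4 overlapped between the kinds. Prox1 (24 against 556 UMIs), Pou3f1 (16 against 167) and Hmx2 (41 against 129) were under the filter. Meis2, Pax6, Satb1, Zfhx3 and Pou3f2, with log2 differences of -0.47 to -0.02, did not pass, which does not show that their levels were alike. Without the filter 11 members were higher in Slc17a6 and 15 in Slc32a1 neurons (edgeR). The share of all genes called without the filter is not given, so these counts do not set members against other genes.

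**Figure D1:**
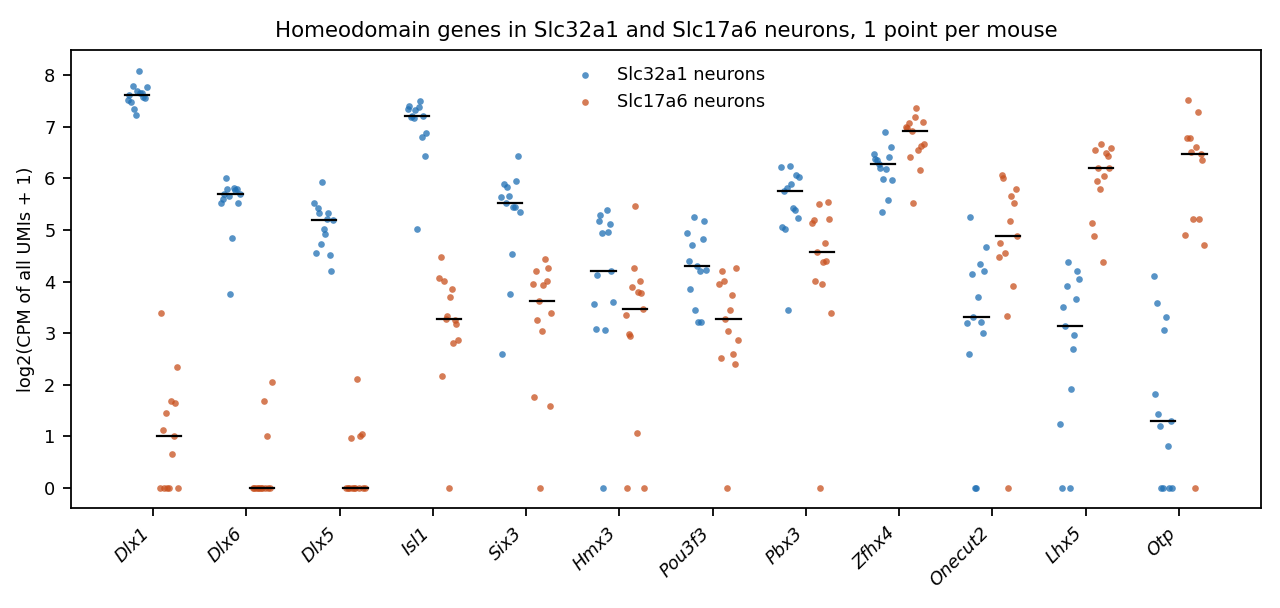
Level of the 12 members called between the neuron kinds, as log2(CPM + 1) on the vertical axis. Each point is 1 of 13 mice (blue, Slc32a1 neurons; orange, Slc17a6 neurons) and lines are medians, with Dlx1, Dlx5, Dlx6 and Isl1 separated completely.

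Among other transcription factors, Nhlh2, a bHLH factor, was higher in Slc17a6 neurons by 4.70 ± 0.22 (edgeR adjusted p = 5.48e-29). In the list of 97 other homeodomain genes, 12 were tested and the 3 called were higher in Slc32a1 neurons. In the list of 76 identity factors without a homeodomain, 28 were tested, 6 were higher and 7 lower.

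Which members share neurons was asked by comparing, within each mouse, neurons with at least 1 UMI of a member against neurons with none. This could be fitted for 37 members (not Six6, Nkx6-2, Vax1, Irx3, Irx5 and Barhl1). Of 623 member pairs tested, 115 were higher and 122 lower, where 1.38% and 1.71% of all 285185 pairs of a member and a gene were (3.08% in either direction). The same genes read from either side are counted as separate pairs, although the same neurons hold both. A partner that passed the low-count filter through its high side alone had to differ, so these counts are no support for the set. Neurons with a UMI are deeper: for the 38 members with at least 20 positive neurons, median UMIs were 1.16 to 2.4 times those of the negative neurons. After thinning every neuron to 2000 UMIs, 209 member pairs could be tested, and 19 were higher and 22 lower. Of the 115 higher pairs 41 were tested there, 40 kept their sign and 19 were called; of the 122 lower, 49, 49 and 20.

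Among members higher in Slc32a1 neurons, some pairs were higher and others lower together. Six3 was lower in Hmx3 neurons by -2.18 ± 0.31 (edgeR adjusted p = 4.73e-07) and in Prox1 neurons by -1.04 ± 0.23 (edgeR adjusted p = 0.00185). In pool 2 alone edgeR called neither (adjusted p = 0.112 and 0.0507), and the Prox1 pair was also not called in pool 1 (-0.81, adjusted p = 0.481) or without the replicate block (-1.02, adjusted p = 0.320). Neurons with a Dlx1 UMI had Dlx6 at 26.6, 53.7 and 74.7 CPM (lowest, median and highest of 13 mice) and those without at 5.17, 17.9 and 25.7 CPM. The ranges did not overlap and the log2 difference was 1.53 ± 0.12 (edgeR adjusted p = 7.43e-18). Dlx2 was higher with Dlx1 by 1.75 ± 0.16 (edgeR adjusted p = 1.06e-14) and Prox1, a prospero-related factor, by 1.52 ± 0.13 (edgeR adjusted p = 1.26e-16). Lhx5 was lower with Dlx1, by -2.42 ± 0.17 (edgeR adjusted p = 1.28e-19). Inside Slc32a1 neurons alone Dlx6 with Dlx1 was 0.11 (edgeR adjusted p = 0.888), which did not pass, nor did Dlx2 (0.45, adjusted p = 0.285) or Prox1 (0.28, adjusted p = 0.578). Over all pairs, 68 of the 115 higher pairs could be fitted in Slc32a1 neurons, 62 had the same sign and 26 were called. In Slc17a6 neurons 45 could be fitted, 39 had the same sign and 23 were called, but 4 were called the opposite way. Among these was Lhx5 with Otp, higher over all neurons (0.66 ± 0.16, edgeR adjusted p = 0.00613). Inside Slc17a6 neurons its median was 46.9 CPM with Otp and 75.3 CPM without, lower in 11 of 11 mice.

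Isl1 neurons carried Hmx3 at 9.71, 31.1 and 65.5 CPM against 1.29, 11.6 and 19.8 CPM without Isl1, higher in 12 of 12 mice by 1.91 ± 0.17 (edgeR adjusted p = 4.85e-13). Hmx2 and Hmx3, which lie 3.85 kb apart on chromosome 7, were higher in each other's neurons. Hmx3 stood at 29.2, 119 and 174 CPM with Hmx2 and 2.11, 13.7 and 21 CPM without, a difference of 3.05 ± 0.21 (edgeR adjusted p = 1.42e-29). Meis2, a TALE factor, was nearly absent from Hmx3 neurons, with 5 UMIs in 318 neurons. It stood at 0, 0 and 4.66 CPM against 146, 224 and 337 CPM without Hmx3, lower in 10 of 10 mice by -6.67 ± 0.24 (edgeR adjusted p = 1.90e-48). Inside Slc32a1 neurons the difference was -6.69 (edgeR adjusted p = 8.37e-51).

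Lhx6 neurons were also low in Meis2. They had 9 Meis2 UMIs, at 0, 2.96 and 31.5 CPM against 116, 198 and 304 CPM without Lhx6, and differed by -4.80 ± 0.26 (edgeR adjusted p = 4.10e-28) with no overlap. Isl1 was lower with Lhx6 by -2.47 ± 0.27 (edgeR adjusted p = 1.94e-11). Lhx6 was higher in Lhx8 neurons, at 55.8, 76.1 and 125 CPM against 2.70, 10.5 and 20.4 CPM in 6 of 6 mice, by 2.88 ± 0.42 (edgeR adjusted p = 2.41e-09). Meis2 itself was accompanied by Pbx3 (0.94 ± 0.11, edgeR adjusted p = 2.84e-10) and had less Pou3f2 (-1.70 ± 0.19, edgeR adjusted p = 1.79e-10).

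On the glutamatergic side, Otp neurons carried Uncx at 0, 27 and 68.6 CPM against 3.53, 9.50 and 13.3 CPM without Otp, higher in 10 of 11 mice by 1.95 ± 0.21 (edgeR adjusted p = 4.37e-12). Read from Uncx, the pair was not called inside Slc17a6 neurons, as given with the promoters. Onecut2 was higher with Otp by 1.95 ± 0.19 (edgeR adjusted p = 1.78e-09), and Sim1, a bHLH-PAS factor, by 4.14 ± 0.20 (edgeR adjusted p = 2.23e-28). Meis2 was lower with Otp, at 10 UMIs in 503 neurons, by -6.04 ± 0.25 (edgeR adjusted p = 3.15e-19). Uncx neurons (265) held 0 Isl1 UMIs against 2364 in neurons without Uncx, so Isl1 was at least 61.1-fold lower, taking 3 counts over the group as the floor. The neurons without Uncx include the Slc32a1 neurons. Median Uncx was 27.2 CPM in Slc17a6 and 0 CPM in Slc32a1 neurons, and median Isl1 8.69 and 147 CPM. How much of the Isl1 difference lies inside Slc17a6 neurons was not tested.

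Lhx5 was higher in Lhx1 neurons, at 5.80, 60.8 and 120.1 CPM with Lhx1 and 9.16, 31.9 and 42.0 CPM without, by 1.18 ± 0.15 (edgeR adjusted p = 2.11e-09). Lhx1 was higher in Lhx5 neurons by 1.01 ± 0.14 (edgeR adjusted p = 2.10e-07), but edgeR did not call it in pool 1 (0.77, adjusted p = 0.0660) or inside Slc32a1 neurons (0.99, adjusted p = 0.0810). Lhx1 neurons also carried Pax6, the paired-box eye factor, by 2.25 ± 0.17 (edgeR adjusted p = 3.53e-20). In neurons with Pax6, Lhx1 stood at 94.0, 131 and 144 CPM against 21.7, 32.3 and 54.8 CPM without, with no overlap, and the difference was 1.92 ± 0.18 (edgeR adjusted p = 5.82e-17). Lhx9 was higher with Lhx2 by 3.28 ± 0.29 (edgeR adjusted p = 1.98e-26) and with Nkx2-2 by 3.29 ± 0.36 (edgeR adjusted p = 5.09e-17). Onecut2 was higher with Onecut3, at 202, 241 and 266 CPM against 20.5, 26.2 and 42.3 CPM in 4 mice, by 2.90 ± 0.28 (edgeR adjusted p = 3.08e-21). Satb1 neurons had 0 of 18 members called by edgeR (5 at an unadjusted p under 0.05, 1 called by DESeq2) and Cux2 neurons 0 of 16 (2, and 0 by DESeq2).

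The remaining members also had called partners. Emx2, of the empty spiracles family, was accompanied by Lhx5 (2.00 ± 0.23, edgeR adjusted p = 1.50e-15) and had less Dlx1 (-4.42 ± 0.41, edgeR adjusted p = 2.99e-24). These genes already differed between the neuron kinds. Medians in Slc17a6 and Slc32a1 neurons were 17.1 and 0 CPM for Emx2, 72.6 and 7.84 CPM for Lhx5, and 1.01 and 195 CPM for Dlx1. How much of either difference lies inside Slc17a6 neurons is not given here. Prox1 neurons had more Hmx3 (1.98 ± 0.19, edgeR adjusted p = 5.84e-14) and less Pou3f2 (-1.76 ± 0.27, edgeR adjusted p = 1.11e-06), the latter not called in pool 1 alone (-1.36, adjusted p = 0.216, edgeR). Meis1 neurons had more Pax6 (2.56 ± 0.23, edgeR adjusted p = 2.94e-20), and Nkx2-4 neurons more Prox1 by 1.52 ± 0.28 (edgeR adjusted p = 1.40e-05). When thinned the latter was not called (1.28, adjusted p = 0.766, edgeR), nor in pool 2 alone. Nkx2-4 neurons held 1 Six3 UMI. Six3 neurons had more Isl1 (0.91 ± 0.10, edgeR adjusted p = 2.18e-11) and Pou3f1 neurons more Pbx3 (1.17 ± 0.24, edgeR adjusted p = 7.30e-04), which edgeR did not call when thinned (0.07, adjusted p = 0.995), in pool 2 or without the 3 mice that earlier work set apart (0.77, adjusted p = 0.0554). Zfhx3 was higher in Zfhx4 neurons by 0.68 ± 0.08 (edgeR adjusted p = 3.72e-09). Barhl2 neurons held 0 Otp UMIs and Lhx8 neurons held 0 as well. Lhx8 and Otp lay in different neuron kinds, with medians in Slc17a6 and Slc32a1 neurons of 0 and 5.00 CPM for Lhx8 and 88.5 and 1.46 CPM for Otp.

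**Figure D2:**
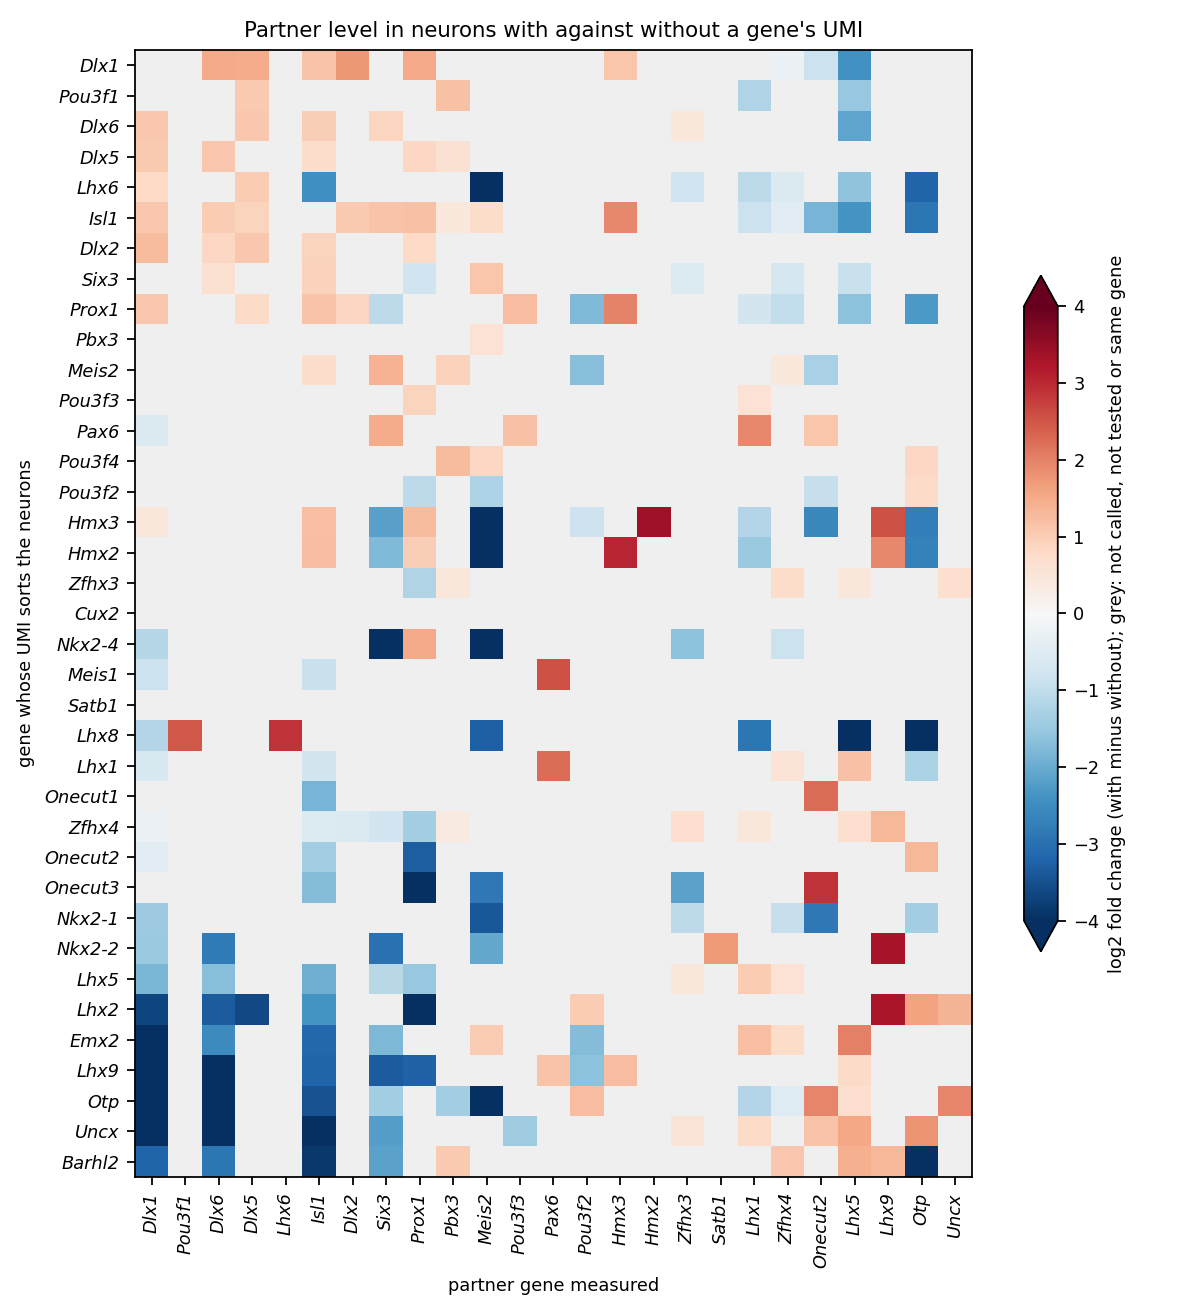
Partner differences between neurons with and without a member (rows) for each partner (columns), as log2 fold change of the called pairs. Red is higher and blue lower with the member, and grey was not called, not tested or the same gene; rows are sorted by the Slc32a1 difference, with GABAergic members at the top.

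Other lists were read in the same fits. Transporters had 62 pairs higher and 58 lower of 230, and peptides are given below. Identity factors without a homeodomain had 87 pairs higher and 118 lower of 886, other homeodomain genes 27 and 10 of 313, and homeodomain cofactors 22 and 27 of 675. Paralog pairs were counted as cells in the thinned neurons. Hmx2 and Hmx3 shared 17 neurons where 2.26 were expected from their separate frequencies within mice, Lhx6 and Lhx8 6 against 0.952, and Zfhx3 and Zfhx4 112 against 75.1. Pou3f3 and Pou3f4 shared 2 against 2.53.

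Peptides were more often lower than higher in a member's neurons, with 56 pairs higher (7.93% of those tested) and 224 lower (31.7%). Of all pairs of a member and a gene, 1.38% were higher and 1.71% lower. As for members, passing the low-count filter depends on level, so these counts are no support for the set. Inside Slc32a1 neurons 96 of the 224 lower pairs were tested and 28 were called lower. Inside Slc17a6 neurons these numbers were 93 and 67. Pmch, the melanin-concentrating hormone precursor, was lower in 27 fits and higher in 1, and Hcrt, the hypocretin (orexin) precursor, lower in 24 and higher in 2. Hcrt was higher with Lhx9, at 80.9, 82754 and 104680.1 CPM against 80.1, 713 and 2868 CPM, in 11 of 11 mice by 6.64 ± 0.53 (edgeR adjusted p = 2.14e-05), although the ranges overlapped, and with Hmx3 by 4.09 ± 0.43 (edgeR adjusted p = 4.78e-04). In pool 2 alone edgeR called neither (Lhx9 6.34, adjusted p = 0.143, and Hmx3 3.75, adjusted p = 0.142), and Hcrt with Hmx3 was also not called in pool 1 or when thinned. Prodynorphin (Pdyn), which hypocretin neurons also make, was higher with Lhx9 by 4.83 ± 0.18 (edgeR adjusted p = 4.32e-13). Pmch was higher with Nkx2-1, in 7 of 8 mice, by 4.90 ± 0.50 (edgeR adjusted p = 0.00152), but edgeR did not call it in pool 1 (5.21, adjusted p = 0.162), pool 2 (4.58, adjusted p = 0.226), without the replicate block (4.67, adjusted p = 0.0550) or when thinned.

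Trh, the thyrotropin-releasing hormone precursor, stood at 148, 685 and 1332 CPM with Otp and 1.69, 24.8 and 58.8 CPM without, with no overlap in 11 mice, and differed by 4.73 ± 0.42 (edgeR adjusted p = 4.88e-05). Onecut2 neurons had more Trh by 3.28 ± 0.29 (edgeR adjusted p = 4.59e-05). Galanin (Gal) was higher with Isl1, at 316, 1145 and 1987 CPM against 109.9, 265 and 407 CPM, by 2.25 ± 0.18 (edgeR adjusted p = 9.86e-06), and when thinned by 1.26, adjusted p = 0.0510 (edgeR), which did not pass. C-type natriuretic peptide (Nppc) was higher with Emx2 by 2.73 ± 0.26 (edgeR adjusted p = 8.42e-23) and with Lhx5 by 1.60 ± 0.17 (edgeR adjusted p = 2.74e-11). Tyrosine hydroxylase (Th), of catecholamine synthesis, was higher with Pou3f4 by 1.53 ± 0.24 (edgeR adjusted p = 1.02e-07), and neurokinin B (Tac2) with Pou3f2 by 2.08 ± 0.27 (edgeR adjusted p = 0.00128), which edgeR did not call in pool 2 alone (1.80, adjusted p = 0.413).

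Seen from the peptide, neurons with at least 1% of their UMIs from Hcrt (150 neurons, 13 mice, median 2447 UMIs) held Lhx9 in 67 of 150 (44.7%, exact 95% interval 36.6 to 53.0%), against 2.35% of other neurons with a deeper median of 3448 UMIs. Oligodendrocytes, which should lack Lhx9, had a UMI in 0.0162% of cells at a median of 1095. Hmx3 was in 44 of 150 (29.3%, exact 95% interval 22.2 to 37.3%) against 4.69%, Hmx2 in 22 and Lhx2 in 18 neurons. Dlx1 was in 2 of 150 (1.33%, exact 95% interval 0.162 to 4.73%) against 25.0%, and 17 neurons lay between 0.5 and 2 times the 1% threshold.

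Pmch-rich neurons (63, in 12 mice, 1% threshold) held Nkx2-1 in 14 of 63 (22.2%, exact 95% interval 12.7 to 34.5%) against 1.67%. Dlx1 and Meis2 were in 0 of 63, which allows a share of up to 4.76% by the limit of 3 counts and 5.69% by the exact 95% interval, where other neurons had 24.7% and 20.9%. For Trh the threshold was lowered to 0.1% after the data were seen, since only 6 neurons reached 1%, and 166 neurons passed, 112 of them or of their neighbours between 0.5 and 2 times that threshold. Otp was in 98 of 166 (59.0%, exact 95% interval 51.1 to 66.6%) of them against 6.79%, Onecut2 in 56 of 166 (33.7%, exact 95% interval 26.6 to 41.5%) against 5.50%, and Uncx in 25 of 166 (15.1%, exact 95% interval 9.99 to 21.4%) against 4.09%. The intervals cover counting error only, since neurons of a mouse share their library.

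**Figure D3:**
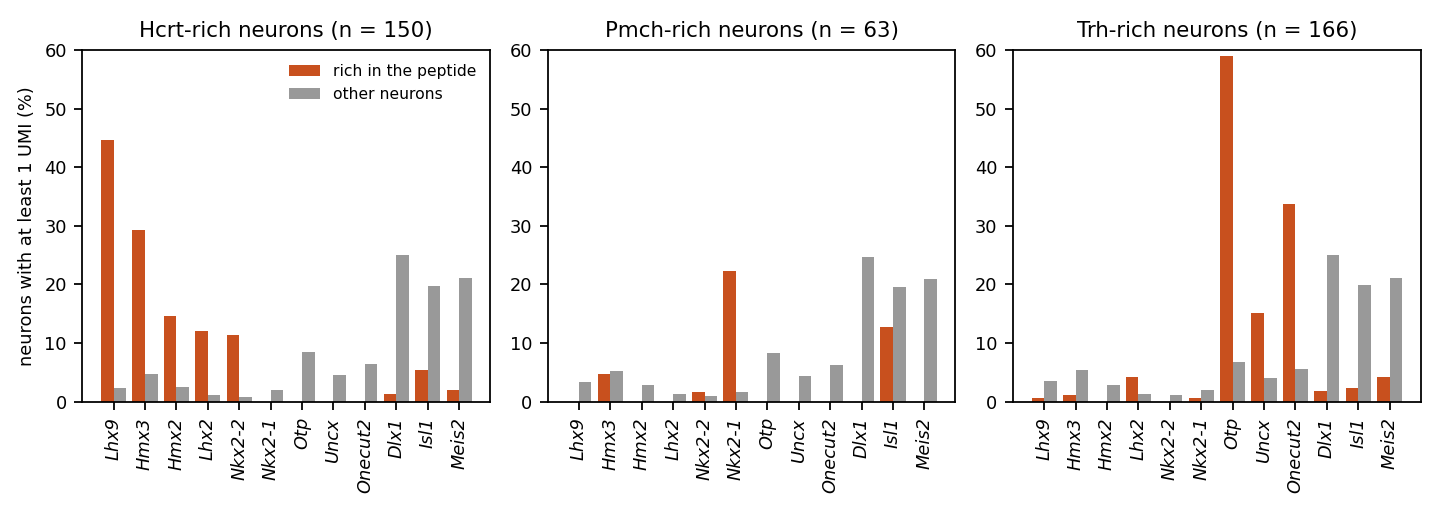
Percent of neurons with at least 1 UMI of 12 members, chosen after their values were seen, in Hcrt-, Pmch- and Trh-rich neurons (orange) and all other neurons (grey). Lhx9 reached 44.7% in Hcrt-rich, Nkx2-1 22.2% in Pmch-rich and Otp 59.0% in Trh-rich neurons.

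Several members were glial. Each non-neuronal class was compared with neurons of the same mouse, and members higher in glia are given first. As above, which members pass the filter depends on their level. Class names rest on clusters that resemble those classes by marker genes. In oligodendrocytes 6 members were higher and 12 lower of 19 tested, against 43.3% and 42.5% of all genes (85.8% either way). Nkx6-2 stood at 86.8, 240.1 and 299 CPM in oligodendrocytes and 0, 0.620 and 5.82 CPM in neurons over 14 mice, without overlap, a difference of 8.51 ± 0.15 (edgeR adjusted p = 1.36e-72, 14 mice).

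Prox1 was at 109, 217 and 269 CPM in oligodendrocytes and 3.99, 28.1 and 150.4 CPM in neurons, by 3.41 ± 0.14 (edgeR adjusted p = 4.09e-14, 14 mice), and the ranges overlapped through high fat diet replicate 7, which had 12 neurons. Pou3f1 rose by 4.29 ± 0.13 (edgeR adjusted p = 1.91e-47, 14 mice), Nkx2-2 by 4.23 ± 0.18 (edgeR adjusted p = 5.34e-40, 14 mice), Pou3f3 by 3.56 ± 0.10 (edgeR adjusted p = 4.15e-48, 14 mice) and Meis1 by 2.64 ± 0.17 (edgeR adjusted p = 2.30e-27, 14 mice). The 32 cells that resembled newly formed oligodendrocytes had Nkx2-2 at 399 CPM, pooled over mice, against 39.0 in oligodendrocytes, with no test.

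Oligodendrocyte precursor cells (OPCs) had 4 members higher and 7 lower of 13 tested, against 30.4% and 35.3% of genes (65.7% either way). Pou3f1 stood at 58.4, 210.2 and 487 CPM in OPCs and 0, 6.65 and 16.0 in neurons, without overlap, and differed by 4.92 ± 0.22 (edgeR adjusted p = 3.19e-112, 11 mice). Pou3f3 differed by 3.62 ± 0.20 (edgeR adjusted p = 5.68e-75, 11 mice), Pou3f2 by 1.73 ± 0.23 (edgeR adjusted p = 2.49e-13, 11 mice) and Six3 by 0.81 ± 0.27 (edgeR adjusted p = 0.00500, 11 mice). DESeq2 did not call Six3 (0.57, adjusted p = 0.127), nor did edgeR in pool 1, without the block or without control replicate 4 (0.45). Pou3f2 was at a pooled 1.26 CPM in oligodendrocytes. Irx3 had 22 UMIs in OPCs and 8 in all neurons.

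Astrocytes had 4 members higher and 2 lower of 7 tested, against 29.2% and 42.7% of genes (71.8% either way). Pou3f2 was at 76.7, 249.9 and 366 CPM in astrocytes and 8.73, 26.9 and 50.1 in neurons, without overlap, by 3.36 ± 0.19 (edgeR adjusted p = 3.68e-66, 12 mice). Pou3f3 differed by 4.20 ± 0.20 (edgeR adjusted p = 4.68e-95, 12 mice) and Zfhx4 by 0.52 ± 0.21 (edgeR adjusted p = 0.0202, 12 mice), and Zfhx4 was not called by DESeq2 (0.13, adjusted p = 0.637), within either pool or without any of 4 single mice, and was -0.29 without the low-count filter. Nkx6-2 was at 51.1, 186 and 417 CPM and differed by 8.13 ± 0.33 (edgeR adjusted p = 1.33e-133, 12 mice). Oligodendrocyte markers stood beside it as follows: pooled Mog was 11.2 CPM in astrocytes and 2148 in oligodendrocytes, whose part in the result was not tested, and Mobp 117 and 4535, while Nkx6-2 was 171 and 214. Counts in astrocytes were sensitive to depth: with cells of at least 1000 UMIs only 1 member was higher.

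Zfhx3, a zinc finger homeodomain factor also expressed in neurons, was at 373, 616 and 915 CPM in microglia and 25.1, 66.4 and 79.3 in neurons, without overlap, by 3.71 ± 0.16 (edgeR adjusted p = 5.45e-124, 12 mice). It was higher in mural cells too (1.31 ± 0.31, edgeR adjusted p = 8.45e-05, 11 mice), where 22.5% of genes were. In the alternatives with pool 1 mice, cells of 1000 UMIs or no filter, no member was called higher in mural cells. In microglia 3 members were lower of 4 tested, against 45.7% of genes (26.8% higher, 72.6% either way). In mural cells 4 were lower of 5 (38.1% of genes, 60.6% either way). In endothelial cells 0 of 4 were higher and 4 lower (edgeR), against 26.6% and 45.9% of genes (72.5% either way). DESeq2 also gave 0 higher, and all 4 had an unadjusted p under 0.05, on the lower side. The lower counts depend on which members pass the filter, and rose to 20 to 31 without it.

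**Figure D4:**
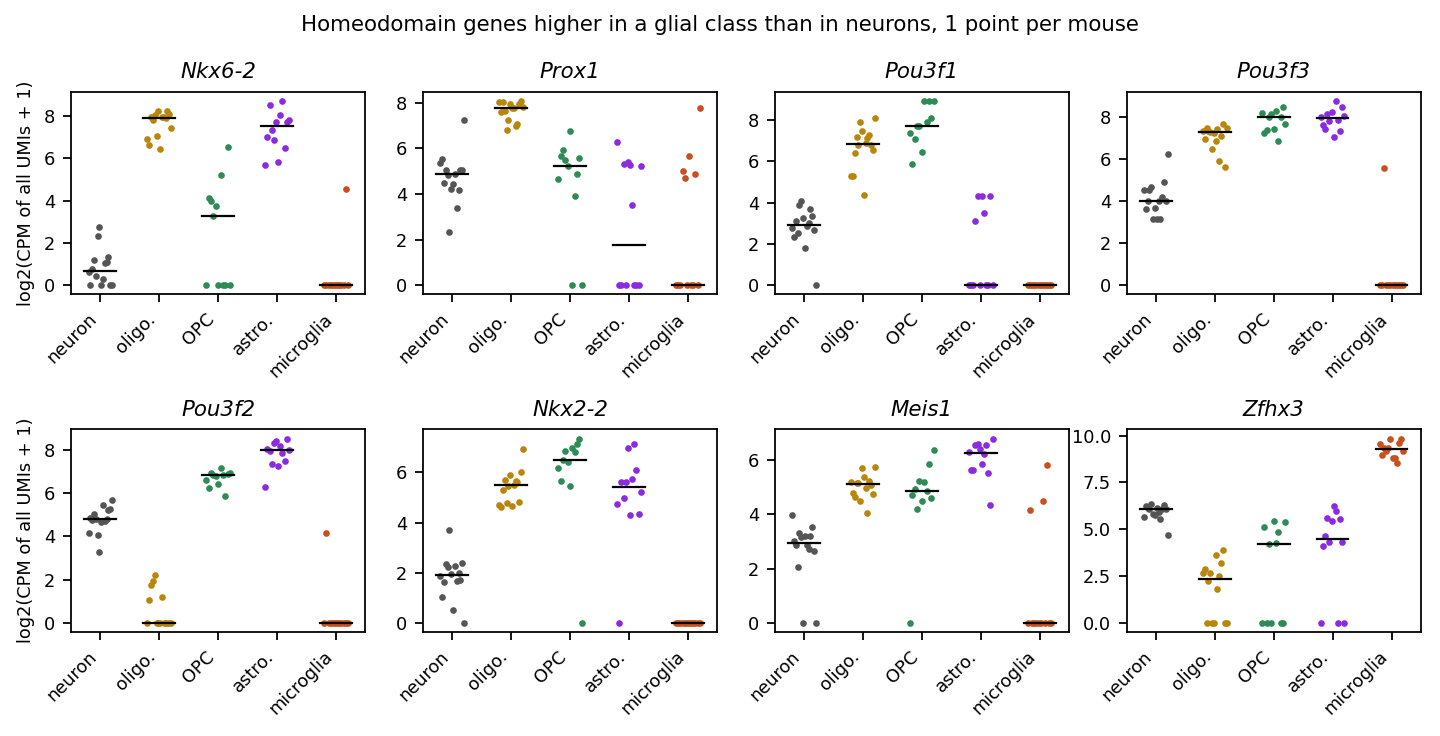
Levels of 8 members higher in a glial class than in neurons, as log2(CPM + 1), 1 point per mouse with at least 10 cells of the class and lines at the median. Nkx6-2 is near 0 in neurons and high in oligodendrocytes and astrocytes, and Zfhx3 is highest in microglia.

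Whether a high fat diet changed the members was asked in each class across mice, with sequencing pool as a covariate. No member passed in any class: 0 of 31 tested in all neurons, 0 of 16 in Slc17a6 neurons, 0 of 23 in Slc32a1 neurons, 0 of 8 in oligodendrocytes, 0 of 3 in astrocytes and 0 of 2 in OPCs (edgeR). DESeq2 also called 0 in each. Of all genes 0% were called in all neurons, Slc17a6 neurons, oligodendrocytes, astrocytes and OPCs, and 0.011% in Slc32a1 neurons. At an unadjusted edgeR p under 0.05 there was 1 member each in all neurons, Slc17a6 neurons, Slc32a1 neurons and OPCs, and 0 in oligodendrocytes and astrocytes.

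The differences were small in neurons. In all neurons the 31 members ran from -0.56 to 0.53 on the log2 scale, high fat diet minus control, with a median of -0.01 and SEs of 0.15 to 0.53. Simulated 2-fold changes in this comparison were recovered for 50.5% of genes and 4-fold changes for 100%, so changes of that smaller size could be missed at this depth. The changed genes were drawn from those with higher counts, at a dispersion of 0.1 for every gene. These shares therefore do not carry over to members with low counts or a wider spread between mice. In bulk sums fewer cells with a transcript and less transcript per cell cannot be told apart.

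Pou3f2 had the smallest p in neurons. In Slc32a1 neurons it stood at 16.3, 22.3 and 31.9 CPM (7 mice) on control chow and 23.0, 36.4 and 51.1 CPM (6 mice) on the high fat diet. The ranges overlapped, and the difference was 0.58 ± 0.20 (edgeR unadjusted p = 0.00739, adjusted p = 1.000, model over all genes), at 0.49 within pool 1 and 0.65 within pool 2. Lhx1 in Slc17a6 neurons was at 0, 27.8 and 53.1 CPM (7 mice) and 32.6, 52.0 and 70.4 CPM (6 mice), with overlap, by 0.61 ± 0.26 (edgeR unadjusted p = 0.0278, adjusted p = 1.000, model over all genes). It was 1.08 within pool 1 and -0.01 within pool 2, so it did not hold in pool 2.

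Pou3f4 in all neurons differed by -0.56 ± 0.30 (edgeR unadjusted p = 0.0751, adjusted p = 1.000, model over all genes), at -0.59 and -0.50 within pools 1 and 2. In OPCs Pou3f1 was at 58.4, 168 and 210.2 CPM (5 mice) and 85.8, 379 and 487 CPM (6 mice), with overlap, by 1.09 ± 0.32 (edgeR unadjusted p = 0.00211, adjusted p = 0.915, model over all genes). Its medians were 135 and 240.4 CPM in pool 1 (control and high fat diet) and 209 and 483 CPM in pool 2. The other named values were Pou3f2 in all neurons at 0.39 ± 0.18 (edgeR unadjusted p = 0.0407, adjusted p = 1.000, model over all genes), Dlx1 there at 0.21 ± 0.15 and Six3 in Slc17a6 neurons at 0.45 ± 0.36. Satb1 in Slc17a6 neurons was -0.44 ± 0.33, Lhx1 in Slc32a1 neurons -0.49 ± 0.32 and Dlx1 in Slc32a1 neurons 0.19 ± 0.13. Lhx1 in Slc32a1 neurons was 0.23 within pool 1 and -1.31 within pool 2. None passed. The makeup of the neurons did not differ detectably: at 1000 UMIs per neuron the share of Slc17a6 neurons was 24.5 ± 8.06% (7 mice) on control chow and 23.0 ± 3.19% (6 mice) on the fat diet (SD, exact two-sided permutation p = 0.663, adjusted over 4 kinds 0.771), and that of Slc32a1 neurons 26.1 ± 5.53% and 26.8 ± 2.80% (exact permutation p = 0.771, adjusted 0.771).

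**Figure D5:**
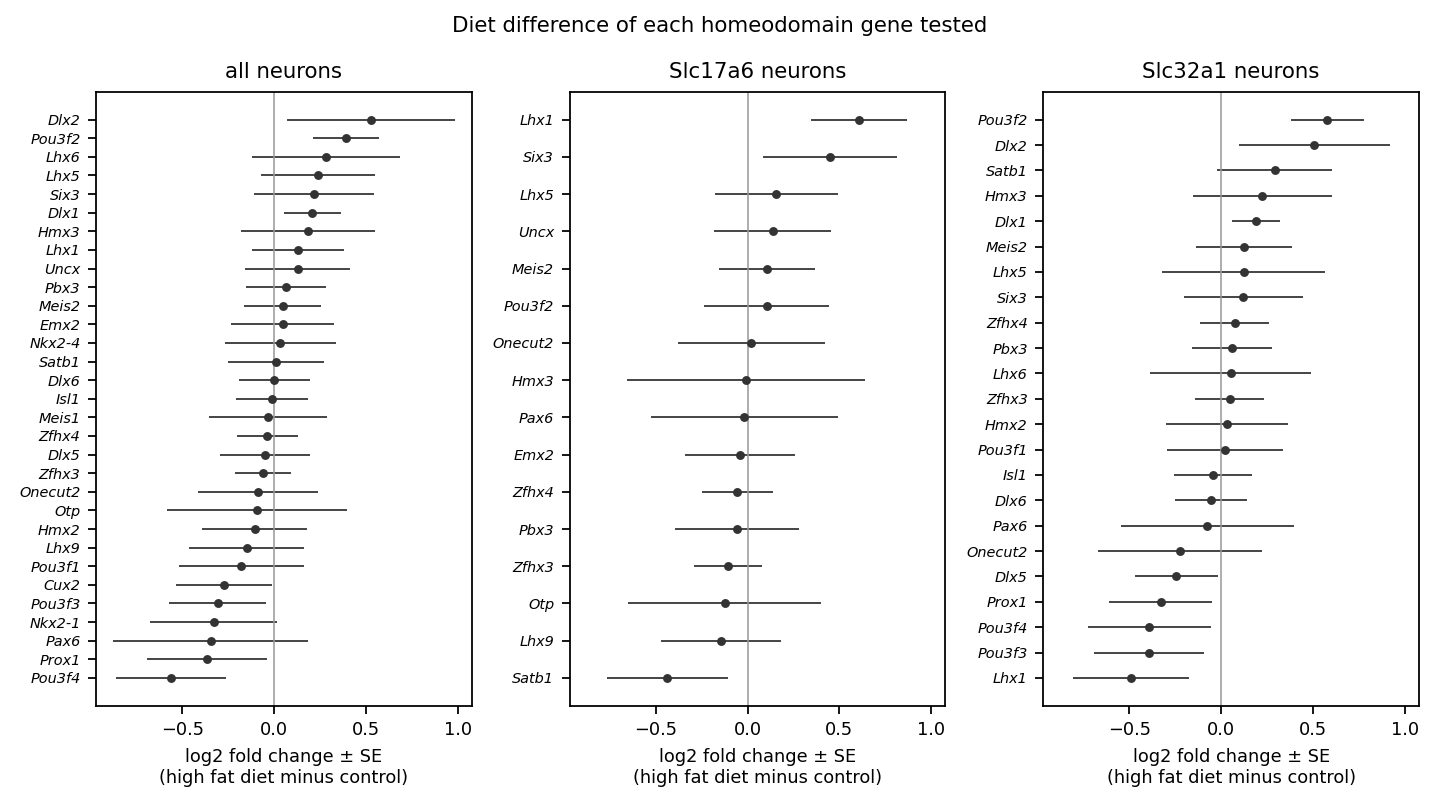
Log2 difference, high fat diet minus control, with its SE for each member tested in all neurons (31), Slc17a6 neurons (16) and Slc32a1 neurons (23), sorted by value. All lie within 1 of 0, and none passed the test.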

How the data were processed

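Drop-seq of lateral hypothalamic punches gave 1 table per mouse. The deposited values are raw UMI counts per gene and barcode, not normalized by the authors. Tools named in the submitters' notes on processing were Picard 2.2.4, STAR 2.4.2a and bcl2fastq 2.18.0.12, and the build was mm10 (GRCm38). Which tool counted UMIs, with which annotation and strand setting, is not stated in these sources, so overlapping and antisense genes are less certain. Replicate numbers follow listing order within a diet. The labels do not say that mice came from separate litters or days.

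The cells were filtered as stated, Scrublet (scanpy 1.11.5, 5% expected, mice with at least 300 cells) removed doublets, and cells were clustered on 2000 variable genes without the members (30 components, 15 neighbours, Leiden resolution 1). Classes needed 3 markers at 1.5-fold in 10% of cells. Endothelial and mural clusters were reclustered at resolution 0.5 after the data were seen, because 1 cluster held markers of both, and 32 cells stayed unnamed. UMIs were summed per mouse (at least 10 cells; for partners at least 5 positive neurons in at least 4 mice) and tested with edgeR 4.0.16 in R 4.3.3 (quasi-likelihood, robust, TMM, filterByExpr, two-sided) at a Benjamini-Hochberg adjusted p under 0.05, over all genes of a fit or, for partners, over all fits together. DESeq2 1.42.0 was an alternative. Values ± are SE unless marked SD.

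Named genes were, between neuron kinds, the members called (up to 10 a side), in classes those called higher, for partners those with the smallest p, and for diet, where none was called, the 3 smallest p per neuron fit. Pou3f1 in OPCs was added after its value was seen, and partner examples outside the rule were chosen after their values were seen. The members and lists were chosen with earlier results of these data known. Scripts were tested on simulated data with 200 changed genes, drawn from those with higher counts. There, 2-fold changes were recovered for 84.4% of genes between neuron kinds, 61.1% with Lhx9 and 57.3% in astrocytes. Gene distances come from GENCODE M21.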

Additional observations from a re-analysis of the deposited data

Results flagged for a closer look

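Meis2 went opposite ways with Six3 in the 2 neuron kinds. In Slc17a6 neurons with Six3 it was at 0, 0 and 16.7 CPM (lowest, median and highest mouse), against 149.6, 181 and 276 CPM without, lower in 7 of 7 mice. In Slc32a1 neurons with Six3 it was at 268, 534 and 929 CPM, against 122, 188 and 308 CPM without, higher in 10 of 10 mice. With Pou3f4 it was at 0, 0 and 127 CPM in Slc17a6 neurons, lower than without Pou3f4 in 5 of 5 mice, and at 313, 551 and 843 CPM in Slc32a1 neurons, higher in 8 of 8. Both pairs were flagged because all mice moved the same way within a kind and the opposite way in the other kind. That agreement is therefore no support, and the difference between the kinds was not tested. The Slc17a6 neurons with a UMI were few, 69 with Six3 and 36 with Pou3f4.

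Among 20 groups of 5 to 7 mice behind the named diet values, 2 had a mouse far from the rest by Dixon's criterion. Chance gives about 1 in 20 where all mice are measured alike. Both were high fat diet replicate 7 in all neurons: Pou3f4 at 25.1 CPM and Dlx1 at 276 CPM. That mouse had 12 neurons, where others had up to 827, and the criterion takes no account of this. The chance rate therefore does not carry over to it.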

How the results depend on the processing

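DESeq2, keeping doublets, and leaving out 3 mice together (controls 1 and 2, and the first on the fat diet) moved no count by over 1.5 times. Those 3 mice, named as standing apart in earlier work on these data, stood wholly above the other mice in 0 of 11 neuron and oligodendrocyte clusters here. Shares of all genes called are not given for the settings below, so their counts do not set members against other genes.

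Without the filter on low counts, members higher in Slc17a6 and Slc32a1 neurons numbered 11 and 15 (4 and 8 with it). Those higher than neurons were 10 in astrocytes, 9 in OPCs and 0 in mural cells. Those lower were 30 in oligodendrocytes, 20 in astrocytes, 24 in OPCs, 28 in microglia, 31 in endothelial and 25 in mural cells. Member pairs lower became 333 and peptide pairs lower 405, since more genes are tested.

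With cells of at least 1000 UMIs, 1 member was higher in astrocytes and 0 in mural cells, and 7, 8 and 7 were lower in oligodendrocytes, microglia and mural cells. In pool 1 mice, 0 were higher in mural cells, 6 lower in oligodendrocytes, 70 member pairs lower and 34 peptide pairs higher. In pool 2 mice, 7 were higher in astrocytes, 8, 9, 12 and 10 lower in astrocytes, microglia, endothelial and mural cells, and 35 peptide pairs higher. With a minimum of 20 cells per sum, 7, 8, 7, 11 and 8 were lower in oligodendrocytes, astrocytes, microglia, endothelial and mural cells. The cause of these changes was not tested.

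Leaving out single mice, members lower in oligodendrocytes ran from 7 to 11 (12 with all), against 2 to 8 in astrocytes, 3 to 6 in microglia and 3 to 10 in endothelial cells. In all 4 classes the highest count came without control replicate 7. Transmitter counts ran from 4 to 5 and 8 to 9. Diet counts stayed at 0 in every setting run.

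Without the replicate block (the mouse), 71 member pairs were higher and 70 lower (115 and 122 with it). The mouse pairs the sums because both come from it. No paired analysis was possible between diets because the replicate numbers follow listing order. Thinned to 2000 UMIs, member pairs were 19 higher and 22 lower, and peptide pairs 15 and 135. Within Slc32a1 neurons member pairs were 36 and 31 and peptide pairs 11 and 42, and within Slc17a6 neurons 32 and 27, and 25 and 103. Fewer members could be fitted there (32, 28 and 24).

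Named values that changed sign were Zfhx4 in astrocytes (-0.29 without the filter) and Adcyap1 with Cux2 (0.23 thinned). Within Slc32a1 neurons they were Dlx6 with Lhx5 (0.21), Gad2 and Gad1 with Lhx6 (-0.020 and -0.045), Pmch with Lhx8 (0.75), Nkx2-1 (-0.49) and Pou3f1 (0.13), and Hcrt with Nkx2-1 (0.078), Pou3f4 (0.052) and Hmx3 (-0.25). Within Slc17a6 neurons they were Gad2 with Lhx5 (0.17), Gad1 with Pbx3 (-0.68), Ddc with Pou3f2 (0.15) and Meis2 with Pou3f4 (-2.66, edgeR adjusted p = 0.00652).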

Other observations

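Homeodomain genes outside the 43 were also glial. Prrx1, a paired-related homeobox gene, was higher in astrocytes than in neurons by 9.64 ± 0.35 (edgeR adjusted p = 7.03e-168, 12 mice) and in OPCs by 9.06 ± 0.34 (edgeR adjusted p = 7.12e-153, 11 mice). Dbx2 was higher in astrocytes by 8.48 ± 0.30 (edgeR adjusted p = 1.74e-176, 12 mice). Hhex was higher in microglia by 10.77 ± 0.37 (edgeR adjusted p = 4.95e-154, 12 mice). Of the 97 genes of that list, 4 were higher and 1 lower of 6 tested in astrocytes, where 29.2% and 42.7% of all genes were. In OPCs 8 were higher of 11 tested, where 30.4% of all genes were higher. Which genes pass the filter depends on their level, so these counts are no support for the list.

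Isl1 neurons of the 2 kinds differed in Meis2 as well. In Slc17a6 neurons with Isl1 it was at 0, 0 and 101 CPM, lower than without in 7 of 7 mice, and in Slc32a1 neurons at 127, 321 and 496 CPM, higher in 11 of 12. The difference was not tested.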
